A study of Homo sapiens with 9 samples.

Results

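The transcripts described are the noncoding host genes of small nucleolar RNAs (snoRNAs) in LAPC4 cells, a human prostate carcinoma line with epithelial character. They were chosen by symbol, as SNHG followed by digits only plus GAS5, ZFAS1 and EPB41L4A-AS1, and 31 of the 60325 gene rows matched. Of these, 25 had at least 10 counts in at least 3 of the 9 libraries and were used; SNHG6, SNHG21, SNHG25, SNHG27, SNHG28 and SNHG31 were left out for low counts. All 25 passed the filter on low counts of the differential test, 24 of them with 10 or more counts in every library, SNHG22 being the exception. The cells were sampled at day 30, with 3 libraries of total RNA in each of 3 groups. The rescue cells carried overexpressed UGT2B28 on top of the knockdown and were kept in 1 mg/mL G418, the knockdown-labelled cells were under 3 ug/mL puromycin, and the control cells are labelled NT, with no selection drug given. UGT2B28 encodes a glucuronosyltransferase that conjugates steroids. The study asked what this enzyme does in prostate cancer progression. The selection drug and the construct cannot be told apart, and since no label says that the replicates grew as separate cultures, the p-values describe how these 3 libraries of a group vary, which may be technical variation.

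A snoRNA host gene is transcribed and spliced, and its introns are trimmed to release snoRNAs. Box C/D snoRNAs guide ribose methylation, H/ACA snoRNAs guide pseudouridylation, both mainly of ribosomal RNA, and the related scaRNAs act on spliceosomal RNAs in Cajal bodies. The spliced exons that remain often hold only short reading frames, and many such transcripts are broken down by nonsense-mediated decay when ribosomes translate them. Several hosts, GAS5 being the textbook case, start with a terminal oligopyrimidine (TOP) tract like those of ribosomal protein mRNAs, and GAS5 was named for its accumulation in growth-arrested cells. The level of a host transcript therefore reflects both its synthesis and its decay, which counts alone do not separate.

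The libraries differed in ways that bear on every value below. Total gene counts ran between 8132206 and 14185252. The knockdown-labelled libraries 1 and 2 resembled each other and not library 3: the chi-square of the counts per degree of freedom was 3.56 between replicates 1 and 2, but 69.6 and 74.7 between either and replicate 3, against 8.45 to 10.5 within rescue and 2.15 to 6.62 within control. No pair reached the value near 1 that sampling noise alone gives, so each library was counted once. UGT2B28 itself had 1139, 1062 and 539 counts in rescue, 63, 70 and 28 in knockdown-labelled and 44, 50 and 76 in control libraries. Scaled for depth, it had 8.48, 6.18 and 3.05 CPM in knockdown-labelled and 5.12, 5.10 and 7.80 CPM in control libraries. In knockdown-labelled library 3 it was below every control library, and in libraries 1 and 2 it was not. Between these groups its log2 fold change was -0.04 (SE 0.35, edgeR adjusted p = 0.957). Mitochondrially encoded genes held 6.96%, 5.79% and 7.90% of counts in rescue, 15.1%, 15.8% and 10.2% in knockdown-labelled and 8.17%, 8.57% and 7.62% in control libraries. A set of 7 luminal prostate markers, among them KLK3 and HOXB13, was detected in every library, summing to 4570 to 5619.9 CPM in rescue, 5848, 5747 and 3111 CPM in knockdown-labelled and 3786 to 4794 CPM in control libraries. The 4 leukocyte markers summed to 4.66 to 5.94 CPM in rescue, 10.3, 10.3 and 2.93 CPM in knockdown-labelled and 4.89 to 8.25 CPM in control libraries; nearly all of this was CD68, with 70, 60 and 60 counts in rescue, 77, 115 and 27 in knockdown-labelled and 69, 48 and 66 in control libraries, while CD3E had at most 2 counts in a library and PTPRC and LYZ were at 0 in all of them. The 3 basal markers summed to at most 3.70 CPM, and the 4 fibroblast markers summed to 34.5 to 113 CPM in rescue, 35.2 to 37.7 CPM in knockdown-labelled and 16.7 to 66.7 CPM in control libraries; the part of these differences in the results was not tested.

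The bases around the annotated starts of the hosts are shown because the TOP tract is the sequence feature the family is known for. RefSeq (GRCh38.p14) start windows, 40 bases on either side of the annotated start, were found for 23 of the 25 hosts; SNHG9 and SNHG15 are named only. Each window is given 5′ to 3′ on the transcribed strand, with the longest run of C and T in capitals. The first 5 belong to hosts that were high in knockdown-labelled libraries 1 and 2 and lower in library 3, the next pair to the hosts that passed the test between rescue and knockdown-labelled cells, and the last pair to hosts with the opposite order within the knockdown-labelled group.
GAS5 (chr1:173869006-173869085, minus strand): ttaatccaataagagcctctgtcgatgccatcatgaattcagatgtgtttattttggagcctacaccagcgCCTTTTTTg
SNHG29 (chr17:16438947-16439026, plus strand): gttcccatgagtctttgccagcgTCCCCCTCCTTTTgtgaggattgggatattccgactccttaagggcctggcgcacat
SNHG1 (chr11:62855846-62855925, minus strand): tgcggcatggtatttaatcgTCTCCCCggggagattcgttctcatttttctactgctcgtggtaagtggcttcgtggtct
SNHG16 (chr17:76557724-76557803, plus strand): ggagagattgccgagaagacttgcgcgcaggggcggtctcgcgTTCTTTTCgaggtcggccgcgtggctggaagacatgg
SNHG19 (chr16:2155319-2155398, minus strand): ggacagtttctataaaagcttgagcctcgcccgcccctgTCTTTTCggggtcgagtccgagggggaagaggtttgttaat
EPB41L4A-AS1 (chr5:112160486-112160565, plus strand): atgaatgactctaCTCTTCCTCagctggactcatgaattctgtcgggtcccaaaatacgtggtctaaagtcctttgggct
ZFAS1 (chr20:49278602-49278681, plus strand): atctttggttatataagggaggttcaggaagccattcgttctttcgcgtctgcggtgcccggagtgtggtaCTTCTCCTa
SNHG4 (chr5:139274061-139274140, plus strand): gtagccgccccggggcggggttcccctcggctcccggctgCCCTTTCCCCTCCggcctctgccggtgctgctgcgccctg
SNHG14 (chr15:24823568-24823647, plus strand): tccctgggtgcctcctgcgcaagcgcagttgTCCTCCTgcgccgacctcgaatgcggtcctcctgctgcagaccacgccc
A run of at least 8 pyrimidines occurred in 11 of 23 host windows (47.8%), against 29.4% of 35116 RefSeq windows of the same length, and the median longest run was 7 bases in hosts and 6 bases in all. The letters CTTTT, a form chosen after the windows had been seen and present in GAS5, SNHG16, SNHG19 and SNHG29 above, lay on the transcribed strand of 7 of 23 host windows (30.4%) and of 8.95% of all windows, and on either strand of 34.8% and 16.6%. The annotated start did not always fall at the tract. In SNHG19 the run began 1 base before it, in SNHG16 4 bases into the transcript, and in GAS5 and ZFAS1 32 bases into it. In SNHG29, SNHG1, EPB41L4A-AS1 and SNHG14 it began at positions -17, -20, -27 and -9 relative to the annotated start. It also ended before that start in these hosts, so it lay outside the annotated transcript. The counts of runs above include such upstream runs. SNHG4 had a run of 13 bases from the first base on. The annotations differ on some starts. In GENCODE 29 the genes GAS5 (chr1:173868882), SNHG29 (chr17:16438822), ZFAS1 (chr20:49278178) and SNHG14 (chr15:24978583) start outside the windows printed here. The positions given, inside or outside the transcript, hold only for the starts these windows were taken around. A match describes the letters in the window and nothing about a factor bound there.

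The introns carry snoRNAs such as these 3, shown for the motifs that define their class.
SNORD12C: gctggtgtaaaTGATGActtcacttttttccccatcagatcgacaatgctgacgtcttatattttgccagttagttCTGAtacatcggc
SNORD123: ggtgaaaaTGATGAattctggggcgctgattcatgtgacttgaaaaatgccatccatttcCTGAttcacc
SNORA73B: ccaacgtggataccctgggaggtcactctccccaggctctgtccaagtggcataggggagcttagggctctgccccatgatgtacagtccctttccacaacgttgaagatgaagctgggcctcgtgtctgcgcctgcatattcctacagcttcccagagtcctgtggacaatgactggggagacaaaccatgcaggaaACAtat
SNORD12C lies in ZFAS1 (GRCh38 chr20:49278940-49279028, 89 bases) and SNORD123 in SNHG18 (chr5:9548836-9548905, 70 bases), both with box C (TGATGA) and box D (CTGA) in capitals, the pair of short motifs at the ends of a box C/D snoRNA. SNORA73B lies in SNHG3 (chr1:28508559-28508762, 204 bases) and ends in the ACA box, in capitals, followed by 3 bases. RefSeq placed 145 small RNAs inside the 25 hosts, of which 119 were box C/D snoRNAs, 20 H/ACA snoRNAs and 3 scaRNAs, the rest carrying no name that gives a class. SNHG14, the long transcript of the Prader-Willi region that runs antisense over UBE3A, held 84 of them, GAS5 held 11 and SNHG1 held 9.

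Levels between genes were compared in control cells as CPM (counts per 1000000 gene counts, TMM scaled) per kilobase of GENCODE exon. The exon length joined all annotated exons of a gene, with 0.342 kb for SNHG19 and 3.63 kb for GAS5. The order between hosts therefore depends on the isoforms annotated, and the spreads given cover the libraries only. SNHG29, host of SNORD49A, SNORD49B and SNORD65, stood highest at 186 ± 9.40 CPM per kb, followed by SNHG19, the short host of SNORD60, at 148 ± 16.4, and GAS5 at 120 ± 3.99 (SD, n = 3). SNHG8 followed with 67.6 ± 10.6, SNHG1 with 40.5 ± 1.86, SNHG16 with 29.8 ± 0.875 and SNHG7 with 18.6 ± 0.864 CPM per kb. The ranges of each of these 7 hosts and the next did not overlap. From ZFAS1 at 11.8 ± 1.85 down to SNHG11 at 6.01 ± 1.20 CPM per kb, ranks 10 to 19, each host overlapped the next in order. SNHG14, with 43.3 kb of exon, stood at 1.42 ± 0.116 and SNHG22, host of SCARNA17, was lowest at 1.03 ± 0.142 CPM per kb. Together the 25 hosts took 0.190%, 0.205% and 0.221% of all gene counts in rescue, 0.282%, 0.280% and 0.190% in knockdown-labelled and 0.230%, 0.223% and 0.220% in control libraries. Of these shares, GAS5 and SNHG29 held 0.0965% to 0.118% in rescue, 0.182%, 0.180% and 0.0908% in knockdown-labelled and 0.116% to 0.124% in control libraries, while the other 23 hosts held 0.0936% to 0.106% in every library. That evenness depends on the scaling: as TMM-scaled CPM, the scale of the values per host below, the other 23 hosts summed to 862, 914 and 1000.5 in rescue, 1264, 1253 and 894 in knockdown-labelled and 1001, 1000.1 and 998 in control libraries, so that they too were higher in knockdown-labelled libraries 1 and 2 than in library 3. In bulk RNA, fewer cells with a transcript and less of it per cell cannot be told apart.

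**Figure D1:**
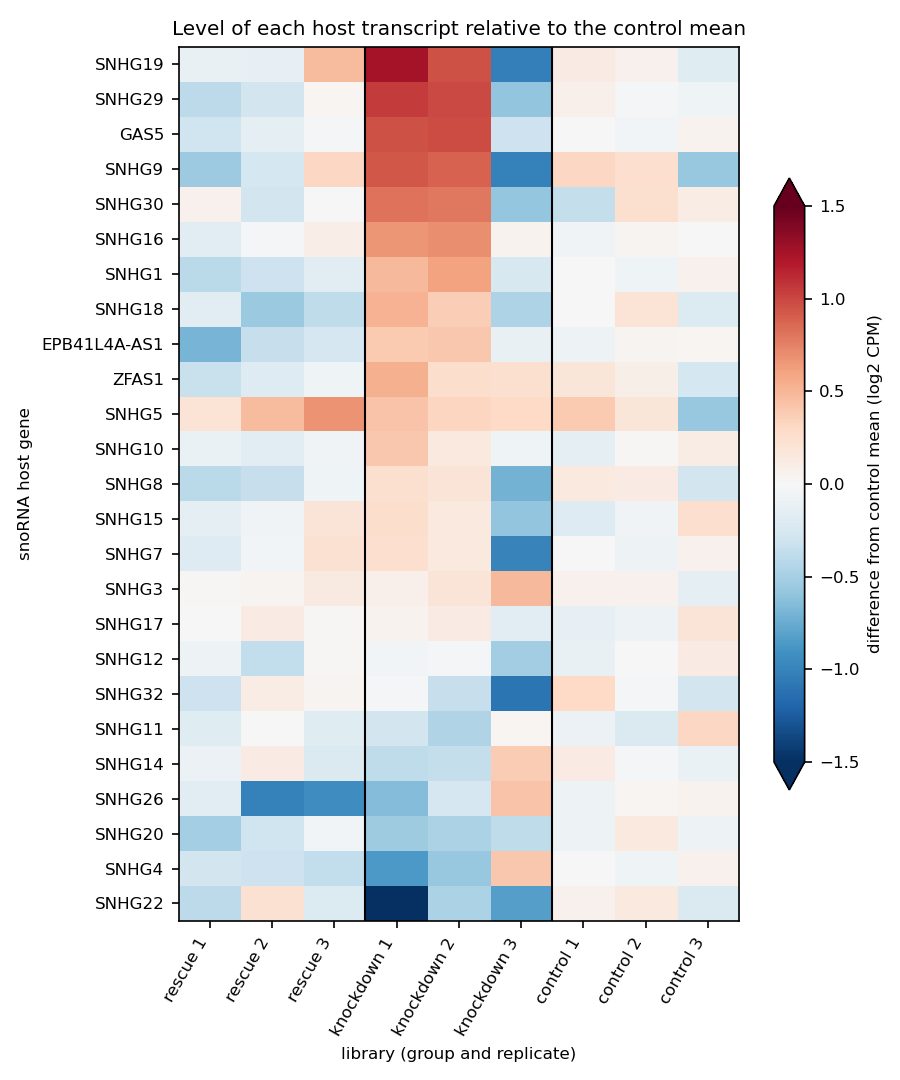
Difference of each host transcript from its control mean on the log2 CPM scale (color, clipped at the ends of the scale) for 25 hosts (rows, sorted by knockdown-labelled libraries 1 and 2) in 9 libraries (columns: rescue, knockdown-labelled, control). Knockdown-labelled libraries 1 and 2 had medians of 0.27 and 0.19 over the hosts, library 3 had -0.31, and the rescue libraries had -0.18, -0.15 and -0.02.

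Between knockdown-labelled and control cells, 0 of 25 hosts passed the test (edgeR quasi-likelihood, Benjamini-Hochberg adjusted p under 0.05 over 16796 genes), where 0.00595% of all genes did. At an unadjusted p under 0.05 there were 4 hosts, a share below the 19.1% of all genes, and the DESeq2 Wald test and limma-voom also called 0 (5.93% and 0.00595% of all genes). The median log2 fold change over the hosts was 0.17, against 0.02 over all genes tested, with 13 hosts above and 12 below 0. Groups that did not overlap were found for 3 hosts in the higher direction (SNHG3, SNHG16 and ZFAS1; 11% of all genes) and for 2 in the lower one (SNHG20 and SNHG22; 10.2% of all genes). What stood out was not a difference between the groups but a split inside the knockdown-labelled one. For 10 of 25 hosts, libraries 1 and 2 lay above every control library and library 3 below every one, where 12.6% of all genes tested showed this order. These were EPB41L4A-AS1, GAS5, SNHG1, SNHG7, SNHG8, SNHG9, SNHG18, SNHG19, SNHG29 and SNHG30, a description of an order noticed in these data. The opposite order was found for SNHG4, SNHG14 and SNHG26, and for 11.4% of all genes. Both orders were read on the TMM scale, where a smaller factor raises the CPM of a library. The factors were 0.793, 0.800 and 1.11 in knockdown-labelled libraries 1, 2 and 3. In control libraries they were 1.06, 1.06 and 1.04. How many hosts keep the order by library size alone was not tested. Taken singly, libraries 1 and 2 were both above every control library for 14 hosts (29.9% of all genes) and both below for 6 (28.8%), and library 3 was below every control library for 16 hosts (35.1% of all genes) and above for 6 (36.7%). With library 3 left out, 11 of 25 hosts passed against control, 9 higher and 2 lower, where 32.9% of all genes did. With libraries 1 and 2 left out instead, 7 passed, 1 higher and 6 lower, where 11.4% of all genes did. Libraries 1 and 2 are also those with the highest mitochondrial share; its part in the result was not tested.

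Among the box C/D hosts, GAS5 carries 10 annotated box C/D snoRNAs and was one of those with the split. It had 355, 398 and 432 CPM in rescue, 846, 861 and 354 CPM in knockdown-labelled and 435, 424 and 453 CPM in control libraries. Knockdown-labelled libraries 1 and 2 were well above every other library, while library 3 was, by a margin of about 1 CPM, the lowest of all 9. The means were 687 ± 289 CPM in knockdown-labelled and 437 ± 14.5 CPM in control cells (SD, n = 3 each), and the log2 fold change was 0.65 (SE 0.27, edgeR adjusted p = 0.229). Without knockdown-labelled replicate 3 it was 0.97 (edgeR adjusted p = 2.74e-07), and without replicates 1 and 2 together it was -0.33 (edgeR adjusted p = 0.0932). SNHG29, the most abundant host, had 535, 581 and 716 CPM in rescue, 1449, 1387 and 466 CPM in knockdown-labelled and 739.5, 693 and 670.3 CPM in control libraries. Its order was that of GAS5, with knockdown-labelled libraries 1 and 2 highest and 3 lowest of the 9, and its log2 fold change of 0.65 (SE 0.33, edgeR adjusted p = 0.316) became 1.02 without replicate 3 and -0.62 without replicates 1 and 2.

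SNHG1, host of SNORD22 and SNORD25 to SNORD31, had 114, 122 and 135 CPM in rescue, 212, 232 and 129 CPM in knockdown-labelled and 152, 145 and 159 CPM in control libraries. SNHG19 had 46.8, 46.4 and 70.1 CPM in rescue, 120.5, 98.4 and 24.7 CPM in knockdown-labelled and 55.1, 52.8 and 44.4 CPM in control libraries. The widest split within the group was that of SNHG19, with knockdown-labelled library 3 below all 8 others, and neither host passed against control (log2 fold change 0.33 ± 0.19 SE and 0.68 ± 0.42 SE; edgeR adjusted p = 0.373 and 0.421). Without replicate 3, SNHG1 stood at 0.55 and SNHG19 at 1.11 on the log2 scale and both passed. SNHG16, host of the SNORD1 family, had 143, 158 and 171 CPM in rescue, 253, 259.9 and 166 CPM in knockdown-labelled and 155, 164 and 161 CPM in control libraries. All 3 knockdown-labelled libraries of SNHG16 were above all 3 controls, library 3 only just, and the log2 fold change was 0.50 (SE 0.17, edgeR adjusted p = 0.15).

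Of the less abundant box C/D hosts, SNHG18 had 19.6, 15 and 16.9 CPM in rescue, 31.8, 28.4 and 15.9 CPM in knockdown-labelled and 22, 25.4 and 19.1 CPM in control libraries. SNHG30, host of SNORD7, had 8.83, 6.91 and 8.45 CPM in rescue, 14.9, 14.7 and 5.55 CPM in knockdown-labelled and 6.52, 10 and 9.13 CPM in control libraries. In both, knockdown-labelled libraries 1 and 2 were the highest of the 9, and the groups overlapped. SNHG26, host of SNORD93, had 7.25, 3.94 and 4.17 CPM in rescue, 5.11, 6.8 and 11 CPM in knockdown-labelled and 7.69, 8.27 and 8.41 CPM in control libraries. There the order turned round, with knockdown-labelled library 3 highest of all. SNHG32, host of SNORD48 and SNORD52 and the one host that GENCODE 29 types as protein-coding, had 15.4, 20.6 and 19.6 CPM in rescue, 18.8, 15 and 8.81 CPM in knockdown-labelled and 23.5, 18.8 and 15.7 CPM in control libraries, lowest in knockdown-labelled library 3. SNHG5, host of SNORD50A and SNORD50B, lay between 2.67 and 6.56 CPM across all libraries, with 5.21 ± 0.269 CPM in knockdown-labelled and 4.21 ± 1.39 CPM in control cells. SNHG14 had 57.8, 67 and 52.7 CPM in rescue, 47.1, 47.7 and 79.9 CPM in knockdown-labelled and 67.1, 60 and 57.3 CPM in control libraries, lowest in knockdown-labelled libraries 1 and 2 and highest in library 3.

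Among the H/ACA hosts, SNHG3 had 62.7, 63.7 and 68.3 CPM in rescue, 65.5, 70.9 and 86.6 CPM in knockdown-labelled and 65, 64.8 and 56.4 CPM in control libraries. Its knockdown-labelled libraries were all above its controls, library 3 the most, and the log2 fold change was 0.26 (SE 0.13, edgeR adjusted p = 0.296). SNHG4, host of SNORA74A and SNORA74D, had 37.7, 36.7 and 35.3 CPM in rescue, 25, 30.6 and 60.3 CPM in knockdown-labelled and 45.6, 43.5 and 47.5 CPM in control libraries. It was the mirror image of GAS5, with knockdown-labelled libraries 1 and 2 below and library 3 above all others. SNHG7, host of the SNORA17 pair, had 70.6, 78.2 and 94.3 CPM in rescue, 96.1, 89.3 and 40.2 CPM in knockdown-labelled and 81.3, 76.8 and 84.3 CPM in control libraries. SNHG8, host of SNORA24, had 46.7, 48.5 and 59 CPM in rescue, 73.3, 70.5 and 37.8 CPM in knockdown-labelled and 68.5, 67.6 and 51.1 CPM in control libraries. In these 2 hosts the knockdown-labelled mean (75.2 ± 30.5 and 60.5 ± 19.8 CPM) and the control mean (80.8 ± 3.76 and 62.4 ± 9.79 CPM) were close although library 3 was below every other library. SNHG9, host of SNORA78, was near the low end of the counts, with 2.5, 3.06 and 4.67 CPM in rescue, 7.27, 7.06 and 1.74 CPM in knockdown-labelled and 4.66, 4.49 and 2.46 CPM in control libraries, again with knockdown-labelled libraries 1 and 2 highest and library 3 lowest.

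The remaining H/ACA hosts are given by their means. SNHG11 and SNHG17, which both carry SNORA71 copies, averaged 14.3 ± 2.51 and 64.6 ± 6.52 CPM in knockdown-labelled cells and 16.9 ± 3.38 and 64.7 ± 8.07 CPM in control cells. SNHG12, host of SNORA44 and SNORD99 among others, averaged 35.2 ± 6.45 CPM in knockdown-labelled and 40 ± 3.36 CPM in control cells. SNHG15, host of SNORA9, averaged 41.9 ± 12.2 CPM in knockdown-labelled and 42.6 ± 6.87 CPM in control cells. Their groups overlapped, and for SNHG12, SNHG15 and SNHG17 knockdown-labelled library 3 was the one below every control.

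Of the 3 hosts of scaRNAs, SNHG20 and SNHG22 had knockdown-labelled libraries all below the controls. They are the same 2 of 25 hosts named above for this, where 10.2% of all genes showed it. SNHG20, host of SCARNA16, had 8.04, 9.36 and 11.2 CPM in rescue, 7.94, 8.3 and 8.81 CPM in knockdown-labelled and 10.9, 12.9 and 11 CPM in control libraries, a log2 fold change of -0.47 (SE 0.19, edgeR adjusted p = 0.215). SNHG22 had 1.98, 3.15 and 2.29 CPM in rescue, 0.538, 1.85 and 1.41 CPM in knockdown-labelled and 2.79, 2.96 and 2.26 CPM in control libraries, a log2 fold change of -1.02 (SE 0.44, edgeR adjusted p = 0.241). SNHG22 rested on 4, 21 and 13 counts in the knockdown-labelled libraries against 24, 29 and 22 in the controls, so its depth allows no firmer statement. SNHG10, host of SCARNA13, had 16.1, 15.6 and 16.7 CPM in rescue, 23, 19.2 and 16.5 CPM in knockdown-labelled and 15.8, 17.6 and 18.8 CPM in control libraries, with overlapping groups.

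**Figure D2:**
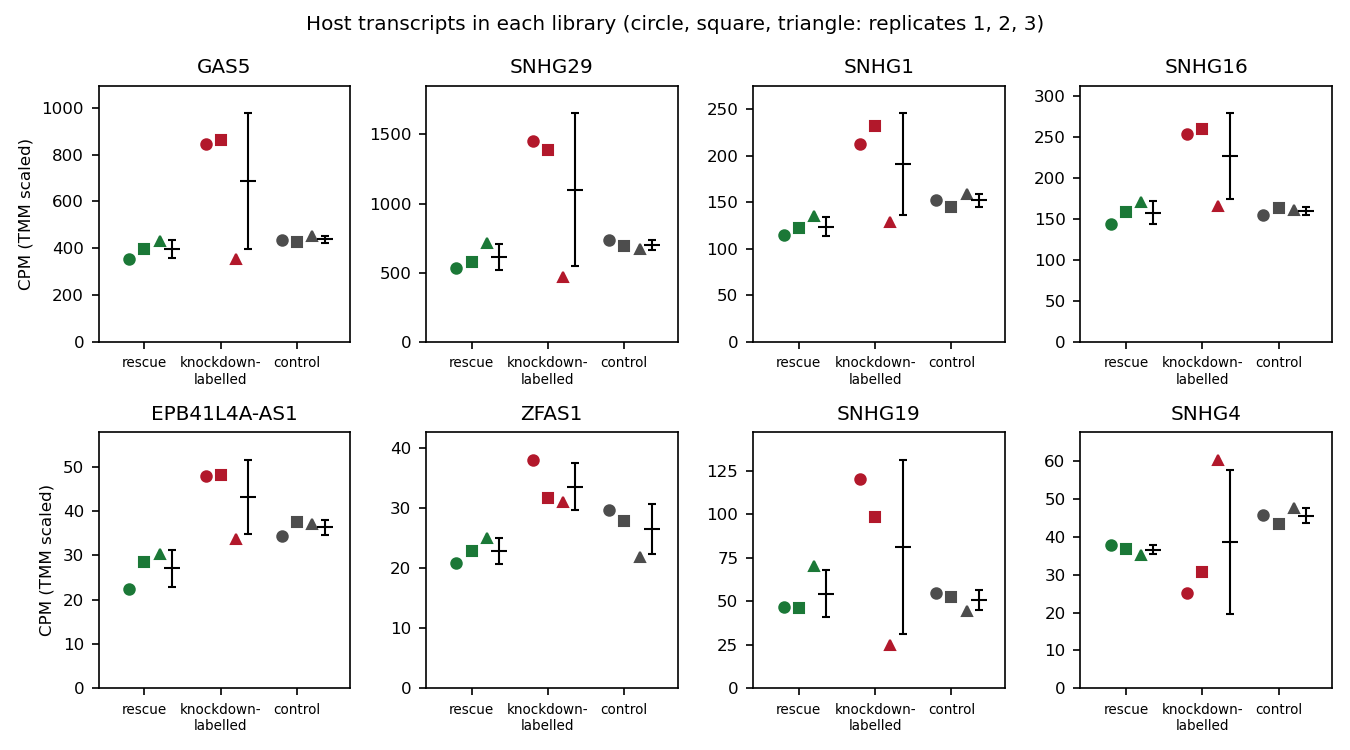
CPM (TMM scaled, linear axis from 0) of 8 hosts in rescue, knockdown-labelled and control libraries; circles, squares and triangles are replicates 1, 2 and 3, and bars give the mean ± SD of each group. Knockdown-labelled replicate 3 of GAS5 (354 CPM) sits below the replicates 1 and 2 (846 and 861 CPM), and the order is turned round for SNHG4.

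Between rescue and knockdown-labelled cells, 2 of 25 hosts passed the test, EPB41L4A-AS1 and ZFAS1, both lower in rescue. Over all genes 9.83% passed in either direction and 5.39% in the lower one, so the share of hosts was near the background; 0 hosts passed in the higher direction, where 4.44% of all genes did. At an unadjusted p under 0.05 there were 7 hosts, against 28.3% of all genes. The DESeq2 Wald test called 5 hosts (16.1% of all genes) and limma-voom the same 2 (10.2% of all genes). Without knockdown-labelled replicate 3 there were 13, of which 11 were lower (39% of all genes passed in either direction), and without replicates 1 and 2 together there were 7, of which 3 were lower (19.5% of all genes). The median log2 fold change of the hosts was -0.24 beside -0.00 for all genes, with 10 hosts above and 15 below 0. Groups did not overlap for these 2 hosts in the lower direction (14% of all genes) and for SNHG22 in the higher one (14.6% of all genes). This comparison and the previous one share the knockdown-labelled libraries.

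EPB41L4A-AS1 (GENCODE 29, GRCh38 chr5:112160526-112164276, plus strand) hosts SNORA13. It had 22.4, 28.5 and 30.4 CPM in rescue, 47.9, 48.2 and 33.6 CPM in knockdown-labelled and 34.5, 37.5 and 37.1 CPM in control libraries. Every rescue library was below every library of the other groups. The means were 27.1 ± 4.18 CPM in rescue and 43.2 ± 8.33 CPM in knockdown-labelled cells, a log2 fold change of -0.68 (SE 0.17, 95% interval -1.05 to -0.31, edgeR adjusted p = 0.033). The call depended on the libraries: leaving out 1 at a time, it held only without knockdown-labelled replicate 3 (-0.84). Without any of the other 8 libraries the fold change stayed between -0.75 and -0.56 and the edgeR adjusted p lay between 0.0547 and 0.128. The lowest of these p was that without control replicate 3, followed by 0.0594 without control replicate 1, 0.0603 without control replicate 2, 0.0716 without rescue replicate 3, 0.0963 without rescue replicate 2, 0.0974 without knockdown-labelled replicate 1, 0.119 without knockdown-labelled replicate 2 and 0.128 without rescue replicate 1 (edgeR adjusted). Without knockdown-labelled replicates 1 and 2 together the fold change was -0.29, and with library size alone in place of TMM it was -0.40 (edgeR adjusted p = 0.265 and 0.116).

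ZFAS1 (chr20:49278178-49295738, plus strand), antisense to ZNFX1, hosts SNORD12, SNORD12B and SNORD12C. It had 20.8, 22.9 and 25.1 CPM in rescue, 38.1, 31.7 and 31.1 CPM in knockdown-labelled and 29.8, 27.9 and 21.8 CPM in control libraries. All knockdown-labelled libraries, library 3 included, were above all rescue and all control libraries, while rescue and control overlapped. The log2 fold change between rescue and knockdown-labelled cells was -0.55 (SE 0.16, 95% interval -0.89 to -0.21, edgeR adjusted p = 0.0488), just inside the threshold. It passed without control replicate 3 (edgeR adjusted p = 0.0498) and without knockdown-labelled replicate 3 (0.00359). It missed without control replicates 1 or 2 (0.0727 and 0.0813), without knockdown-labelled replicates 1 or 2 (0.143 and 0.106) and without rescue replicates 1, 2 or 3 (0.170, 0.140 and 0.0981; all edgeR adjusted p). DESeq2 size factors moved the adjusted p to 0.0524, a filter of 1 CPM in 3 libraries to 0.0520 and library size alone to 0.328.

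The abundant hosts had fold changes of similar or larger size than ZFAS1, but a wider spread within the knockdown-labelled group. The log2 fold change of rescue against knockdown-labelled cells was -0.85 for SNHG29 (SE 0.33, edgeR adjusted p = 0.127) and -0.80 for GAS5 (SE 0.27, edgeR adjusted p = 0.0876). For SNHG1 it was -0.62 (SE 0.19, edgeR adjusted p = 0.0621) and for SNHG16 -0.52 (SE 0.17, edgeR adjusted p = 0.0702). In each of these 4, all rescue libraries lay below knockdown-labelled libraries 1 and 2, and 1 or more lay above library 3. Without replicate 3 the fold changes were -1.22 for SNHG29 and -1.12 for GAS5, while without replicates 1 and 2 together they were 0.41 and 0.18, so the direction rested on which libraries stood for the group. SNHG9, SNHG19, SNHG26, SNHG18 and SNHG30 had log2 fold changes of -0.66, -0.58, -0.57, -0.56 and -0.54 with edgeR adjusted p between 0.152 and 0.409. On the higher side were SNHG22 at 0.91 (SE 0.44, edgeR adjusted p = 0.201) and SNHG32 at 0.38 (SE 0.26, edgeR adjusted p = 0.368).

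Between rescue and control cells, 0 of 25 hosts passed (edgeR), where 0.149% of all genes did; the DESeq2 Wald test and limma-voom also gave 0 (1.94% and 0.0774% of all genes), and 1 host had an unadjusted p under 0.05 against 10.5% of all genes. The median log2 fold change was -0.14, against -0.01 over all genes, with 5 hosts above and 20 below 0. No host had rescue libraries all above the controls (12.8% of all genes did), and 4 had them all below (13.6% of all genes did): EPB41L4A-AS1, SNHG1, SNHG4 and SNHG26. EPB41L4A-AS1 averaged 27.1 ± 4.18 CPM in rescue and 36.4 ± 1.64 CPM in control cells, a log2 fold change of -0.43 (SE 0.17, edgeR adjusted p = 0.397). SNHG1 averaged 124 ± 10.6 CPM in rescue and 152 ± 7 CPM in control cells, a log2 fold change of -0.29 (SE 0.19, edgeR adjusted p = 0.659). Both passed when knockdown-labelled replicate 3 was left out (7.38% of all genes did; without replicates 1 and 2 together 0 hosts and 5.27% of all genes did), a library that belongs to neither group and enters through the shared fit. SNHG26 averaged 5.12 ± 1.85 CPM in rescue and 8.12 ± 0.384 CPM in control cells, and SNHG4 36.6 ± 1.22 CPM in rescue and 45.5 ± 2.01 CPM in control cells. GAS5 at -0.15 (95% interval -0.75 to 0.45) and SNHG29 at -0.20 (95% interval -0.93 to 0.53) on the log2 scale had intervals that include 0 and reach well to either side of it. These intervals come from the shared fit, so the spread within the knockdown-labelled group enters them too. GAS5 averaged 395 ± 38.9 CPM in rescue and 437 ± 14.5 CPM in control cells. SNHG29 averaged 610 ± 94.2 CPM in rescue and 701 ± 35.35 CPM in control cells.

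**Figure D3:**
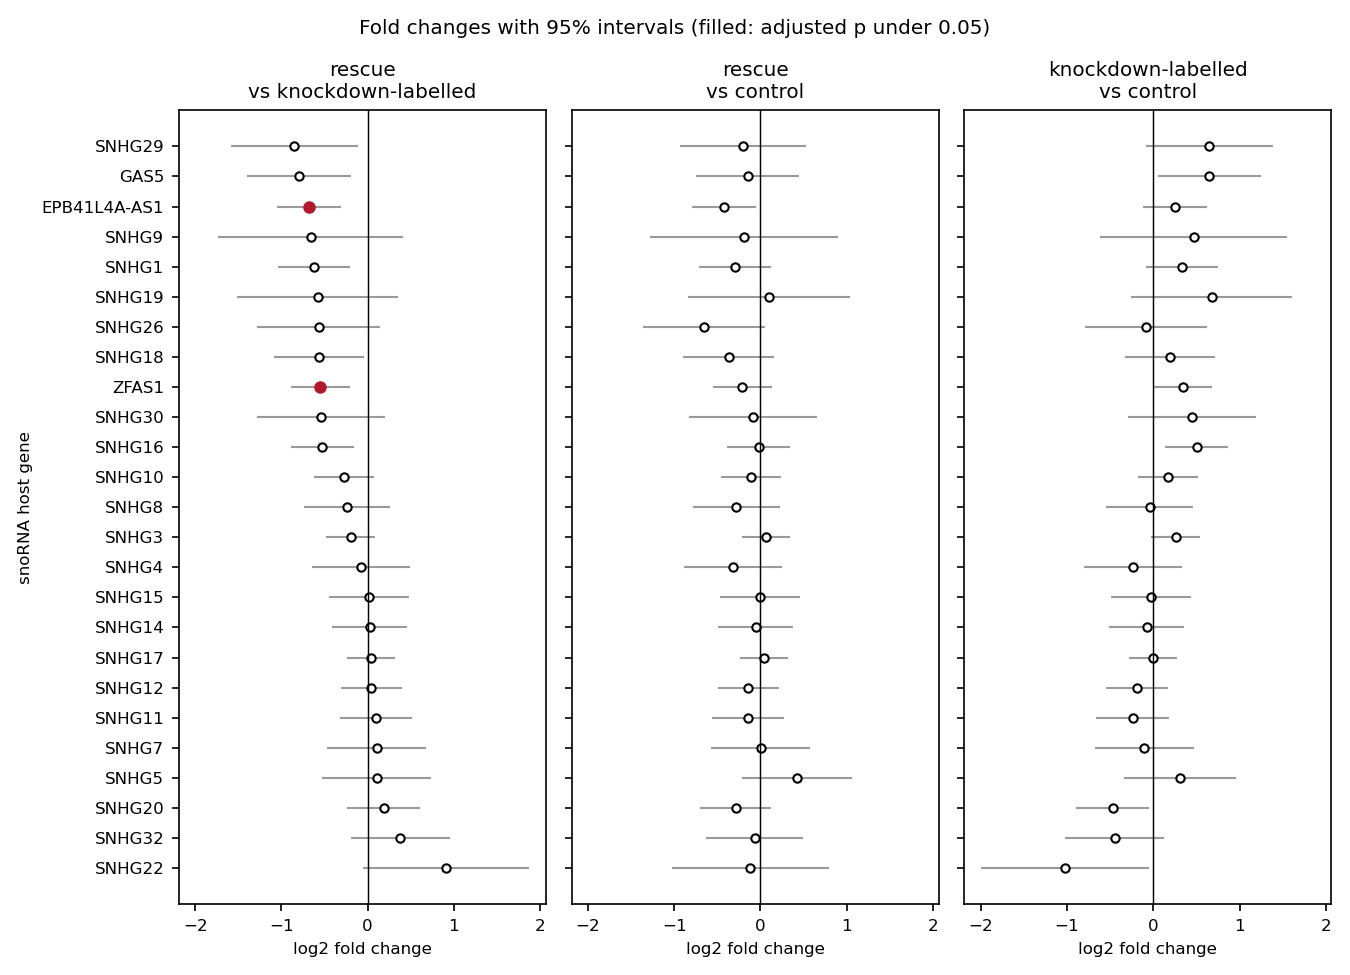
Log2 fold change (points) with 95% intervals (lines) of the 25 hosts, for rescue against knockdown-labelled, rescue against control and knockdown-labelled against control cells; filled points have an edgeR adjusted p under 0.05. The filled points are EPB41L4A-AS1 (-0.68) and ZFAS1 (-0.55) in the comparison of rescue with knockdown-labelled cells, and the intervals of GAS5 and SNHG29 are wider than that of ZFAS1.

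How the reads were assigned matters for these genes. The sources used here do not say whether strand entered the counting, and 12 of the 25 hosts share exon bases with a gene on the other strand and 19 with a gene on the same strand, snoRNA genes included. LRRC75A, which shares 452 exon bases with SNHG29 on the opposite strand, had 340.5, 419 and 481 CPM in rescue, 1124, 1075 and 306 CPM in knockdown-labelled and 514, 493 and 482 CPM in control libraries. It followed SNHG29 closely, at 63.7, 72.2 and 67.2 counts per 100 SNHG29 counts in rescue, 77.6, 77.5 and 65.8 in knockdown-labelled and 69.5, 71.1 and 72.0 in control libraries. GAS5-AS1 had 61.6, 69.4 and 85.8 CPM in rescue, 216, 209.6 and 27 CPM in knockdown-labelled and 75.3, 68.6 and 83.7 CPM in control libraries, with 17.4, 17.4 and 19.9 counts per 100 GAS5 counts in rescue, 25.5, 24.3 and 7.63 in knockdown-labelled and 17.3, 16.2 and 18.5 in control libraries. In GENCODE 29, GAS5 shares 42 of its 3631 exon bases with GAS5-AS1, and SNHG29 shares 452 of 3759 with LRRC75A. Reads on these shared bases cannot be told apart without the strand setting. The annotation used for counting is not given, so the bases shared in it may differ from these. How many reads lay on shared bases was not tested. Both hosts that passed the test also overlap genes on the other strand. EPB41L4A covers 49.6% of the exon bases of EPB41L4A-AS1 from the other strand and had 5.27, 4.02 and 3.28 CPM in rescue, 5.65, 5.3 and 5.22 CPM in knockdown-labelled and 9.32, 7.25 and 6.36 CPM in control libraries. ZNFX1, which shares 249 exon bases with ZFAS1 on the other strand, had 68.7, 69.5 and 76.7 CPM in rescue, 50.6, 57.8 and 69.9 CPM in knockdown-labelled and 62.4, 59 and 59.2 CPM in control libraries. EPB41L4A averaged 4.19 ± 1.01 CPM in rescue, 5.39 ± 0.230 CPM in knockdown-labelled and 7.64 ± 1.52 CPM in control cells (SD, n = 3 each), so it was, like its host, lowest in rescue cells, though highest in control rather than knockdown-labelled cells. Its log2 fold change was -0.35 between rescue and knockdown-labelled cells and -0.85 between rescue and control cells (SE 0.26 each, edgeR adjusted p = 0.411 and 0.253). ZNFX1 averaged highest in rescue cells, where ZFAS1 was lower than in knockdown-labelled cells.

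Same-strand neighbours touch SNHG3, SNHG4 and SNHG20, among others. SNHG32 shares 418 exon bases with AL671762.1. SNHG14 shares 1236 with AC124312.3, 1049 with AC124312.1 and 141 with SNRPN. Of these partners only SNRPN had a row under its name, with at most 22 counts in a library. SNHG3 shares 242 exon bases with RCC1, which had 122, 123 and 131 CPM in rescue, 136, 137 and 134 CPM in knockdown-labelled and 148, 143 and 146 CPM in control libraries. SNHG4 shares 626 exon bases with MATR3, an RNA-binding nuclear matrix protein gene, which had 263, 286 and 246 CPM in rescue, 250.3, 268 and 408 CPM in knockdown-labelled and 272, 277 and 287 CPM in control libraries. MATR3 was highest in knockdown-labelled library 3, as SNHG4 was, but lay within the range of the other groups in libraries 1 and 2. SNHG20 shares 460 exon bases with SEC14L1, which had 43.4, 44 and 41.9 CPM in rescue, 24.8, 31.8 and 42.4 CPM in knockdown-labelled and 36.7, 36.8 and 41.3 CPM in control libraries.

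**Figure D4:**
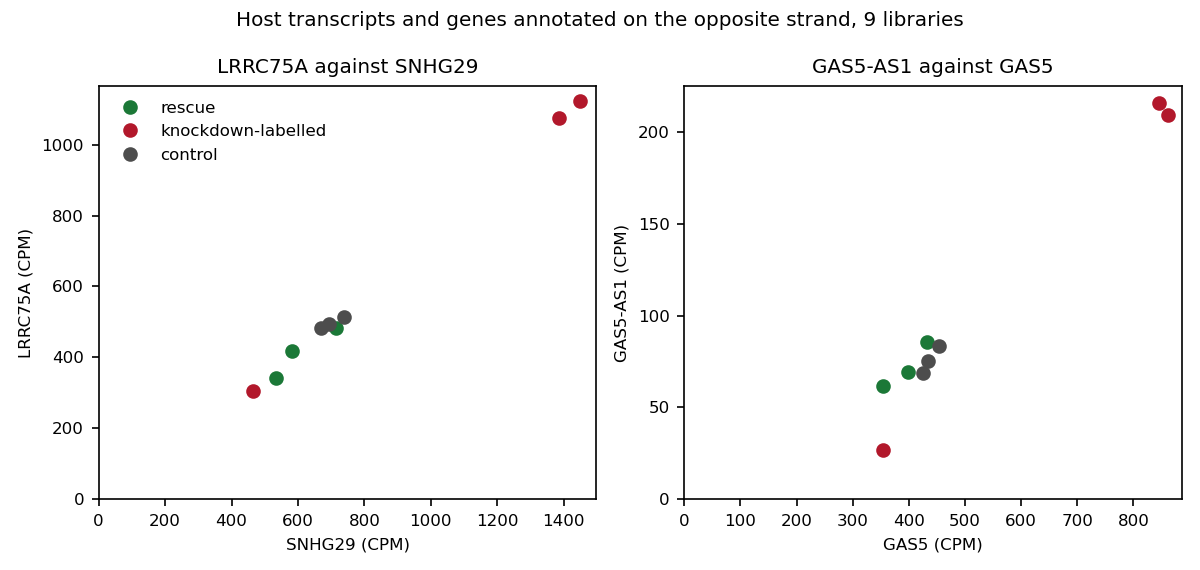
CPM of LRRC75A against SNHG29 (left) and of GAS5-AS1 against GAS5 (right), 1 point per library in rescue, knockdown-labelled and control cells, linear axes from 0. In both panels 2 knockdown-labelled libraries stand apart at the upper right and the other 7 libraries lie at the lower left. Among these, knockdown-labelled library 3 is lowest in the right panel, at 27 CPM of GAS5-AS1 against 61.6 to 85.8 CPM in rescue and control libraries.

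The snoRNAs inside the hosts were hardly counted at all. Of the annotated snoRNA rows that overlap a host's exons, 0 of 41 had a count in any library. In host introns outside SNHG14, 8 of 17 rows had counts, 417 in all over 9 libraries, and the 70 rows inside SNHG14 had 1 count. SNORA73B, printed above, had 21, 23 and 17 counts in rescue, 19, 8 and 21 in knockdown-labelled and 14, 25 and 28 in control libraries, without a visible order. SNORA71B in SNHG17 had 17, 23 and 9 counts in rescue, 0, 2 and 15 in knockdown-labelled and 9, 18 and 16 in control libraries. That is the reverse of the GAS5 order, with knockdown-labelled libraries 1 and 2 lowest, at counts too low to compare further. These counts allow no comparison of the mature snoRNAs, and why so few were counted was not tested.

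The protein-coding snoRNA hosts, 28 genes mostly of ribosomal proteins and translation factors with snoRNAs in their introns, showed the same split. Their median difference from the control mean was -0.25, -0.20 and -0.05 log2 CPM in rescue, 0.69, 0.68 and -0.22 in knockdown-labelled libraries. For knockdown-labelled against control cells 0 of 28 passed (edgeR; 0.00595% of all genes), and 12 had an unadjusted p under 0.05 (19.1% of all genes), with a median log2 fold change of 0.47 and 23 above 0. For rescue against knockdown-labelled cells 0 of 28 were higher (4.44% of all genes) and 4 lower (5.39% of all genes), 20 had an unadjusted p under 0.05 (28.3% of all genes), and the median was -0.60. RPS20, a small-subunit ribosomal protein gene, had 518, 509.5 and 618 CPM in rescue, 1635, 1552 and 704 CPM in knockdown-labelled and 649, 672 and 614 CPM in control libraries (log2 fold change of rescue against knockdown-labelled -1.24, edgeR adjusted p = 0.0207). TPT1, EEF1B2 and RPL4, the last of these named after its value was seen, fell by 1.14, 0.76 and 0.68 on the log2 scale (edgeR adjusted p = 0.0271, 0.0343 and 0.0353).

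The proteins of snoRNA particles were examined next. Of 8 genes for core proteins of box C/D and H/ACA particles, 0 passed in any of the 3 comparisons (edgeR; 1, 1 and 0 at an unadjusted p under 0.05 for rescue against knockdown-labelled, knockdown-labelled against control and rescue against control, where 28.3%, 19.1% and 10.5% of all genes were). FBL, the methyltransferase of box C/D particles, had 153, 174 and 182 CPM in rescue, 236, 235 and 125 CPM in knockdown-labelled and 179, 176 and 177 CPM in control libraries, and DKC1, the pseudouridine synthase of H/ACA particles, had 120.2, 127 and 139.5 CPM in rescue, 136, 133 and 148 CPM in knockdown-labelled and 152, 147 and 144 CPM in control libraries. FBL followed the GAS5 order over the libraries and DKC1 did not. Of 11 assembly factors, ZNHIT3 was the one that passed, lower in rescue than in knockdown-labelled cells (log2 fold change -0.50, edgeR adjusted p = 0.0292), where 9.83% of all genes passed in either direction. Of 9 regulators of TOP mRNAs, CNBP was the one that passed, also lower in rescue (log2 fold change -0.58, edgeR adjusted p = 0.0229), and LARP1, the repressor that binds TOP tracts, had 158, 158 and 157 CPM in rescue, 96.1, 109 and 141 CPM in knockdown-labelled and 168, 153 and 166 CPM in control libraries (log2 fold change of rescue against knockdown-labelled 0.45, edgeR adjusted p = 0.0676). With 1 of 11 and 1 of 9 genes passing by adjusted p, both lists were near that background. At an unadjusted p under 0.05 (edgeR) there were 3 of 11 assembly factors and 6 of 9 TOP mRNA regulators in this comparison, where 28.3% of all genes were. The 6 regulators went in both directions, CNBP lower and LARP1 higher in rescue among them.

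Decay factors were examined because the hosts are known targets of nonsense-mediated decay. Of 13 factors, SMG5 was higher and PNRC2 lower in rescue than in knockdown-labelled cells, beside the 9.83% of all genes that passed in that comparison, and 0 passed in the other comparisons (edgeR; 4 at an unadjusted p under 0.05 for knockdown-labelled and 1 for rescue against control, where 19.1% and 10.5% of all genes were). SMG5, which recruits decay enzymes to UPF1, had 131, 126 and 112 CPM in rescue, 83.2, 72.1 and 102 CPM in knockdown-labelled and 125, 127 and 117 CPM in control libraries, a log2 fold change of 0.52 between rescue and knockdown-labelled cells (edgeR adjusted p = 0.0401). PNRC2, a decapping coactivator, had 69.5, 68 and 72.9 CPM in rescue, 134, 131 and 83.8 CPM in knockdown-labelled and 84, 91.2 and 82.2 CPM in control libraries, a log2 fold change of -0.73 (edgeR adjusted p = 0.0242). The median difference of the 13 factors from the control mean was -0.29 and -0.39 log2 CPM in knockdown-labelled libraries 1 and 2, -0.03 in library 3 and between -0.14 and 0.03 in rescue libraries. Of 5 exon junction complex genes 0 passed for rescue against knockdown-labelled cells (3 at an unadjusted p under 0.05, where 28.3% of all genes were), and of 5 tested coding transcripts known to be sensitive to decay, GABARAPL1 was the one that passed, higher in rescue (log2 fold change 0.77, edgeR adjusted p = 0.0371), where 4.44% of all genes passed in that direction; in the other comparisons 0 passed in either list (edgeR; 1 of these 10 genes at an unadjusted p under 0.05, for rescue against control). For rescue against knockdown-labelled cells, 3 of the 5 coding transcripts were higher and 2 lower. At an unadjusted p under 0.05 (edgeR) there were 2, GABARAPL1 and ATF4. ATF4 was lower in rescue (log2 fold change -0.62, edgeR adjusted p = 0.0971). The median difference of the 5 from the control mean was 0.32, 0.43 and -0.28 log2 CPM in knockdown-labelled libraries. In rescue libraries it was 0.10, 0.28 and 0.25.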

How the data were processed

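Total RNA of LAPC4 cells was sequenced with paired ends, per the labels' protocols, in 9 libraries. The authors deposited raw counts of reads for each gene, in whole numbers; per the submitters' processing notes the tools were FastQC, cutadapt, STAR and HTSeq and the build hg38, while versions, annotation and strand setting are not given there. Rows that name no gene were kept out of totals and tests: 43.7% to 48.7% of reads lay on no feature and 2.36% to 3.14% were ambiguous. Reads on no feature cannot be assigned, and reads shared between overlapping genes may be lost or split, which affects hosts that overlap other genes.

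The test was edgeR's quasi-likelihood F test (edgeR 4.0.16, R 4.3.3) on 16796 genes kept by filterByExpr at a minimum count of 10. TMM factors were used and 1 fit held all 9 libraries, with 6 residual degrees of freedom. Passing means a p under 0.05 after Benjamini-Hochberg adjustment over all genes. The SE was taken as the size of the log2 fold change over the root of the F statistic, and intervals hold 95%. CPM are counts per 1000000 scaled by TMM. Depth was 8132206 to 14185252 gene counts per library. The fit was tested on simulated data in which the libraries of a group shared 1 mean, so without the split of the knockdown-labelled group. There 55.7%, 45.8% and 41.8% of simulated 2-fold changes passed. These are for knockdown-labelled against control, rescue against knockdown-labelled and rescue against control. Alternatives were scaling by library size alone or by size factors (DESeq2 1.42.0), other filters on low counts, the DESeq2 Wald test, limma-voom (limma 3.58.1), a fit of the 2 groups alone, a block for the replicate number, other thresholds, each library left out in turn, and knockdown-labelled replicates 1 and 2 left out together.

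The genes named are all hosts that meet the rule, UGT2B28, from each list described at most 3 genes, by smallest p in a comparison, overlapping genes and resident snoRNAs. Outside that rule, FBL and DKC1 were named as the enzymes of their particles, RPL4 as the last of 4 protein-coding hosts that passed, and cell type markers for their detection. Members and lists were chosen with earlier results of these data known. Of the 25 hosts, 22 matched GENCODE 29 by symbol and 3 by another name (SNHG29, SNHG30 and SNHG32). Start windows and resident small RNAs are from RefSeq, and snoRNA sequences from GENCODE 29. 1 marker of the luminal list is not reported here.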

Additional observations from a re-analysis of the deposited data

How the results depend on the processing

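The number of hosts that passed depended on the libraries and the fit. For knockdown-labelled against control cells (0 in the fit reported) it was 3 without a filter on low counts, 0 to 11 with 1 library left out (11 without knockdown-labelled replicate 3) and 7 without knockdown-labelled replicates 1 and 2 together. For rescue against knockdown-labelled cells (2 as reported) it was 1 with DESeq2 size factors, 0 with library size alone, 7 without a filter, 1 with a filter of 1 CPM in 3 libraries, 5 with the DESeq2 Wald test, 0 with only the 2 groups compared, 0 with the replicate block, 0 at an adjusted p under 0.01 and 5 under 0.10, 0 to 13 with 1 library left out (13 without knockdown-labelled replicate 3) and 7 without replicates 1 and 2 together. For rescue against control cells it was 0 to 2 with 1 library left out and 0 under every other alternative. Over all genes, knockdown-labelled against control (1 as reported) gave 153 with library size alone, 1045 without a filter, 996 with the DESeq2 Wald test, 0 with 2 groups, 0 with the replicate block, 530 under 0.10, 0 to 5691 with 1 library left out and 2115 without replicates 1 and 2 together. Rescue against knockdown-labelled (1651) gave 2636 without a filter, 2702 with the DESeq2 Wald test, 7 with 2 groups, 442 with the replicate block, 162 under 0.01, 3016 under 0.10, 134 to 6745 with 1 library left out and 3619 without replicates 1 and 2. Rescue against control (25) gave 401 without a filter, 326 with the DESeq2 Wald test, 13 with limma-voom, 962 with 2 groups, 4 with the replicate block, 3 under 0.01, 101 under 0.10, 1 to 1276 with 1 library left out and 977 without replicates 1 and 2. The host median for knockdown-labelled against control cells was a log2 fold change of -0.091 with library size alone and -0.33 without replicates 1 and 2, and that of rescue against knockdown-labelled cells was 0.022 and 0.18. Library size alone moved the median of all genes to -0.21 and 0.24 in these comparisons, so relative to all genes the hosts were still 0.12 higher and 0.22 lower. It also turned EPB41L4A-AS1, knockdown-labelled against control, to -0.0084. Without knockdown-labelled replicates 1 and 2, the log2 fold change against control turned to -0.14 for EPB41L4A-AS1, -0.33 for GAS5, -0.26 for SNHG1, -1.06 for SNHG19, -0.62 for SNHG29, -0.65 for SNHG30 and -1.17 for SNHG9, and that of rescue against knockdown-labelled to 0.18 for GAS5, 0.14 for SNHG18, 1.16 for SNHG19, 0.41 for SNHG29, 0.56 for SNHG30 and 0.97 for SNHG9. Of 36 log2 fold changes of at least 0.25 in size, 13 changed sign under an alternative, and of 39 smaller ones 29 did. The cause of these changes was not tested.

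The correlations between the deviations of same-numbered libraries from their group means ran from -0.35 to 0.08. With 3 libraries a group such deviations depend on each other, so these correlations cannot exclude a pairing. The fit reported used no pairing, and the block was an alternative only. With 3 libraries a group and a shared fit, the spread within the knockdown-labelled group enters the precision of every comparison, rescue against control included. For SNHG29 the SE was 0.33 between rescue and control cells and also 0.33 between knockdown-labelled and control cells. Libraries left out alone leave 2 in a group, and knockdown-labelled replicate 3 alone is assumed to vary like the other groups. SNHG22, SNHG9 and SNHG5 rest on few counts. Intervals cover the spread between these libraries.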
